A study of Mus musculus with 18 samples.

Results

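The cytosolic ribosomal protein genes encode the proteins that, with the ribosomal RNAs, build the large and small subunits of the ribosome outside mitochondria. They were taken by name from the table of RNA-seq counts: every symbol that begins with Rpl or Rps and a number, plus Rpsa, Rplp0, Rplp1 and Rplp2, without pseudogenes, the Rps6k kinases and binding proteins. The rule gave 91 of the 48709 genes in the table. Of these, 46 were core large subunit genes, 31 core small subunit genes and 14 paralogues or near-copies of a core gene.

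The cells were mouse embryonic fibroblasts (MEFs) of the C57BL/6 strain. IMP2, encoded by Igf2bp2, is an RNA-binding protein of the insulin-like growth factor 2 mRNA-binding family that has been described as a reader of N6-methyladenosine. RNA was sequenced from 4 groups of 3 libraries, called Mock, Mock+IL-17, Imp2 siRNA and Imp2 siRNA+ IL-17 in the labels; the cells called mock received a control siRNA, per the series' design text. After 24 h with siRNA the medium was replaced, and the cells were kept without or with interleukin-17 (IL-17, a cytokine of inflammation) at 200 ng/mL for 8 h. Separately, RNA bound by IMP2 was precipitated (RIP-seq) with an anti-IMP2 antibody in 3 libraries and with normal rabbit IgG in 3 libraries, after 3 h of IL-17 at 200 ng/mL. The labels name no siRNA sequence and do not say whether libraries of a group came from separate cultures, so p-values measure the spread between these libraries, which may be technical. In each group 1 library title begins with RB160 and 2 begin with NA, and no source used here explains the prefix.

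The libraries held between 33841054 and 44433699 counts. Igf2bp2 stood at 133.7, 167.5 and 146.3 CPM (counts scaled to the same library size, with TMM factors) in mock, and at 24.6, 22.3 and 18.6 CPM with Imp2 siRNA. Its log2 fold change was -2.77 (standard error, SE, 0.17), and -2.70 (SE 0.16) between the groups given IL-17. Fibroblast markers Col1a1 and Col1a2 were abundant, with means of 9407 and 5249 CPM, whereas the summed markers of macrophages reached at most 6.09 CPM, those of endothelium 1.5 CPM and those of epithelium 3.31 CPM, with Adgre1 at 0. Cell type marker lists moved with the siRNA. In both siRNA comparisons 7 of 9 tested fibroblast markers fell and 1 rose, and 4 of 5 smooth muscle markers rose (edgeR, adjusted p under 0.05). Of 3 tested epithelial markers, all at low levels, 1 rose and 1 fell without IL-17, and 2 rose and 1 fell with it. Of all tested genes, 32.4% were called without IL-17 and 33.3% with it. The summed level of the fibroblast markers overlapped between the groups. It ran from 14353 to 18022 CPM in mock and from 14952 to 19594.5 CPM with siRNA, and after IL-17 from 12489 to 14912 CPM and from 14027 to 15585 CPM. The summed smooth muscle markers ran from 4049 to 10153 CPM in the 6 mock libraries and from 8779 to 20088 CPM in the 6 siRNA libraries. Their part in the ribosomal protein results below was not tested, and in bulk RNA fewer cells of a type and less RNA per cell cannot be told apart.

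Ribosomal proteins are made in near-equal numbers, because each ribosome carries 1 copy of nearly every one of them, and their mRNAs are among the most abundant of a growing cell. Their promoters typically lack a TATA box, and transcription starts at a C within a run of pyrimidines. The run becomes the terminal oligopyrimidine (TOP) element at the 5′ end of the mRNA, through which mTORC1 signalling and the RNA-binding protein LARP1 control translation of the whole set. Some ribosomal proteins also act outside the ribosome: RPL5 and RPL11 bind MDM2 and so stabilise p53 when ribosome assembly fails.

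The windows around the RefSeq start sites (GRCm38.p6) show the promoters of 8 genes taken as examples from the results below. A window was found for 66 of the 91 members, and each sequence shown holds 50 bases before the start and 20 bases from it. Rpl22l1, Rplp0 and Rps3a1 passed the test for Imp2 siRNA in both comparisons, and Rps24 only after IL-17. Other members that passed, among them Rpl21 and Rps10, are not shown. Rpl38, Rps12, Rps21 and Rps28 were among the members with the highest RIP-seq values. Capitals mark runs of at least 8 C or T in a row that lie within 20 bases of the start. For these 8 genes the RefSeq start lay 0 to 72 bases from the gene start in the count table, so a run need not be the TOP element itself. For some other members counted below the distance was larger, as for Rpl18 (2614 bases) and Rps2 (1947 bases).
Rpl22l1, chr3:28805458-28805527, plus strand: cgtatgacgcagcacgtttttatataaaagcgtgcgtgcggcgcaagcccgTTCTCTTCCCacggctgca
Rps24, chr14:24490628-24490697, plus strand: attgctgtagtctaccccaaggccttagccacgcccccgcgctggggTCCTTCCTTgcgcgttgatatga
Rplp0, chr5:115559417-115559486, plus strand: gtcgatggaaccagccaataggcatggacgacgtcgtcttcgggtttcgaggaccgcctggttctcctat
Rps3a1, chr3:86142649-86142718, minus strand: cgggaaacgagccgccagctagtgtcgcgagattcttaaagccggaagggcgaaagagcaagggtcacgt
Rpl38, chr11:114668530-114668599, plus strand: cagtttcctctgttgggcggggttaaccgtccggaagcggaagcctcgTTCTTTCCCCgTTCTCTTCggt
Rps12, chr10:23787190-23787259, minus strand: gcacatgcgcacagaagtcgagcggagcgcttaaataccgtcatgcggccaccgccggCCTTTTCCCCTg
Rps21, chr2:180257329-180257398, plus strand: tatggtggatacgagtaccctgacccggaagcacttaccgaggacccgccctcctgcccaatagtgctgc
Rps28, chr17:33824543-33824612, minus strand: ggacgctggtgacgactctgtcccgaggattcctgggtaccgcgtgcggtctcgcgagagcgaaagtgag
Rpl22l1, Rps24, Rpl38 and Rps12 carry such a run, and Rplp0, Rps3a1, Rps21 and Rps28 do not within these windows. Among all members with a window, 29 of 66 (43.94%) had a run, read in the direction of transcription, against 16.01% of the 18884 genes in the promoter table. The same search for runs of A or G found 4 members (6.06%) against 17.38% of all genes. The motif CCGGAAG, sought on both strands of the 300-base window, was present in 25 members (37.88%) against 11.32% of all genes, and is visible before the start of Rps3a1, Rps21 and Rpl38. The letters TATAAA, also sought on both strands, were present in 6 members (9.09%) against 12.85%, and are visible before the start of Rpl22l1. These matches describe letters and not sites, and a CCGGAAG on the other strand reads CTTCCGG and can share letters with a run of C or T.

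Of the 91 members, 83 passed the filter on low counts and were tested among 13702 genes. Their means over the 12 libraries ran from 21.4 CPM for Rps27rt to 2499 CPM for Rpsa, which also encodes a laminin receptor, with counts not divided by gene length. The 8 others are paralogues. Rps4l, Rps12l1, Rps3a2 and Rps3a3 had 0 counts over the 12 libraries together. For each gene that allows up to 3 counts in all (95% level, counting error only), and only of reads that the counting would give to that copy, which is not known here. Rpl10l, Rpl39l and Rpl3l, known from testis or muscle, had 1, 2 and 3 counts in all, and Rpl6l had 90.

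Together the members took between 4.07% and 5.31% of all counts in a library. The share was 4.69 ± 0.443% (SD, n = 3) in mock, 4.77 ± 0.474% with IL-17, 4.39 ± 0.405% with Imp2 siRNA and 4.44 ± 0.329% with both. The groups overlapped. Exact two-sided permutation tests gave p = 0.4 for the siRNA both without and with IL-17. The smallest p that 3 libraries against 3 allow is 0.1. These permutation tests, here and below, took no account of the prefix, so the difference between prefixes is part of the spread they measure. The plan held only a description of the share, with no test. Within a prefix the siRNA libraries were all lower than the mock libraries of the same IL-17 treatment. The RB160 libraries held 5.16% in mock and 4.84% with siRNA, and 5.31% and 4.79% after IL-17. The NA libraries held 4.27% and 4.65% in mock against 4.25% and 4.07%, and 4.48% and 4.50% after IL-17 against 4.39% and 4.13%. The share depends on how library sizes are scaled: per 10000 TMM-scaled counts the members held 457 ± 17.1 in mock and 454 ± 13.4 with siRNA (SD, n = 3; exact permutation p = 0.8). The mitochondrial share differed between prefixes too, at 3.31% to 3.85% in RB160 and 5.41% to 6.90% in NA libraries. Its part in the summed share was not tested; without mitochondrial transcripts the group means were 4.96%, 5.04%, 4.62% and 4.69%.

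**Figure D1:**
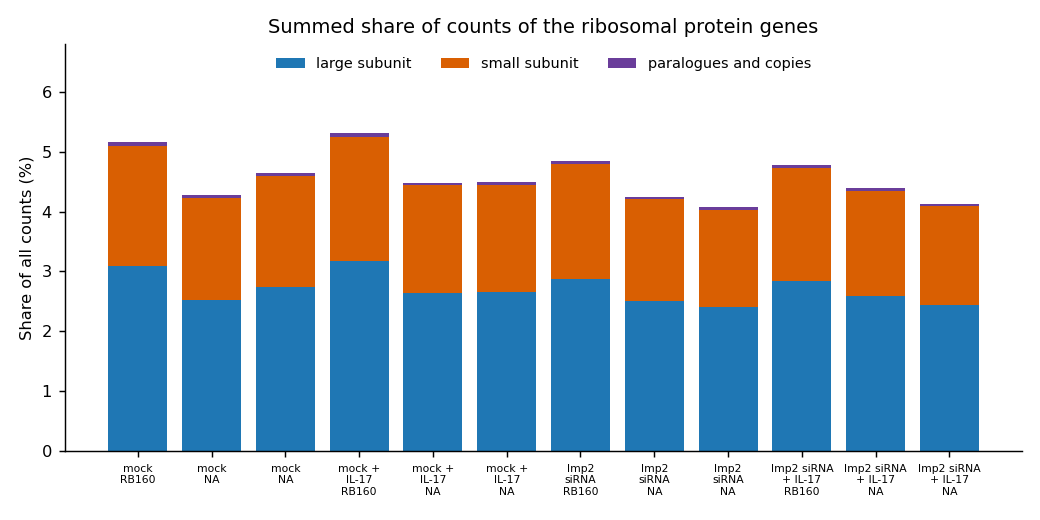
Share of all counts (%, y axis) taken by large subunit, small subunit and paralogous ribosomal protein genes in each of the 12 RNA-seq libraries, with group and title prefix under each bar. All 12 bars lie between 4.07% and 5.31%, and the RB160 library is the highest of each group.

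Imp2 siRNA left most members near their mock level. Without IL-17, 7 of 83 tested members passed an adjusted p of 0.05 (edgeR's quasi-likelihood test, Benjamini-Hochberg over all 13702 genes), 2 higher and 5 lower. Of all tested genes 32.4% were called, 16.1% higher and 16.4% lower. After IL-17, 10 members passed, 3 higher and 7 lower, against 33.3% of all genes, 16.7% higher and 16.6% lower. The members' median log2 fold change was 0.01 without and -0.03 with IL-17, beside -0.0004 and -0.01 for all tested genes. Of the 83 members, 79 (95.2%) and 76 (91.6%) stayed within 0.2 of 0, compared with 51.1% and 50.9% of all tested genes and 62.6% and 60.3% of the 1986 tested genes with a mean of at least 100 CPM. All 7 members called without IL-17 were called again with IL-17, in the same direction. The same count was not made over all genes, so nothing particular to the members is read from it. The 2 comparisons set different libraries against each other, but both take the spread and the prefix term from all 12 libraries and so are not independent. The groups did not overlap for 5 members without IL-17 and for 4 with it, where 18.7% and 18.8% of all genes did not overlap.

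The counts of calls depend on the settings. With no prefix term 1 member, Rpl21, passed in each comparison, while the calls over all genes went from 4446 to 303 and from 4558 to 318. With library totals in place of TMM factors the members' split moved from 2 higher and 5 lower to 0 and 16, and from 3 and 7 to 0 and 23, and the calls over all genes were 4890 and 4958. Fitted on the compared groups alone, the comparison without IL-17 called 4 members and 3929 genes. Without mock replicate 1, Imp2 siRNA replicate 1 or Imp2 siRNA replicate 3 the first count was 4, with 4039, 3616 and 3169 genes called in all. Without replicates 1 or 3 of mock with IL-17 or replicate 3 of siRNA with IL-17 the second count was 5, 4 and 5, with 3730, 3365 and 3313 genes.

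**Figure D2:**
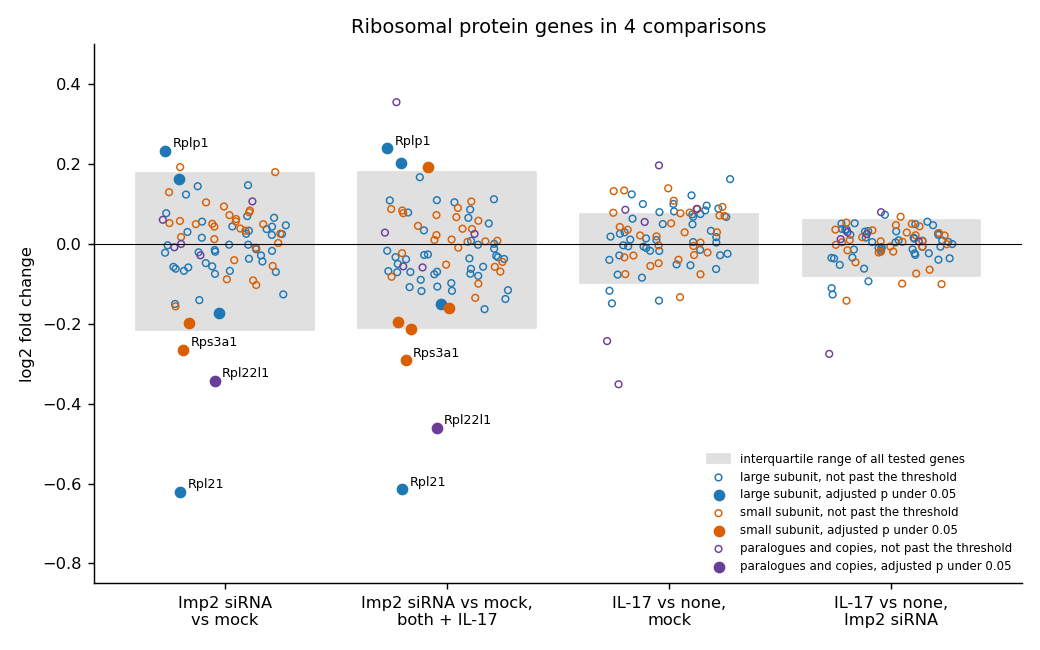
Log2 fold change (y axis) of the 83 tested ribosomal protein genes in 4 comparisons, with filled points for adjusted p under 0.05 and grey boxes for the interquartile range of all 13702 tested genes. Rpl21 lies lowest in both siRNA comparisons, at -0.62 and -0.61, and no point is filled in the IL-17 comparisons.

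Among large subunit genes, Rpl21 had the largest fall. Its human counterpart is mutated in a hereditary loss of hair, and the mouse gene (ENSMUSG00000041453) lies at chr5:146832890-146837032 on the plus strand (mm10, per the submitters' processing notes). It stood at 579.8, 521.0 and 524.0 CPM in mock and at 372.9, 364.8 and 318.4 CPM with Imp2 siRNA. After IL-17 the values were 587.1, 539.6 and 530.7 CPM in mock and 358.4, 382.1 and 340.5 CPM with siRNA. Every siRNA library lay below every mock library, with no overlap. Imp2 siRNA changed it by -0.62 on the log2 scale without IL-17 (SE 0.064, adjusted p = 7.72e-06, edgeR) and by -0.61 with it (SE 0.064, adjusted p = 8.41e-06), and the test was passed in 21 of 21 alternative settings for both. Within the prefixes it was -0.64 and -0.62 without IL-17 and -0.71 and -0.57 with it, for RB160 and NA.

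Rpl7, which encodes another large subunit protein, differed more by prefix than by siRNA. Its RB160 libraries stood at 986.5 CPM in mock and 842.8 CPM with siRNA, and its NA libraries at 615.9 and 643.1 CPM against 583.0 and 554.7 CPM. With siRNA it fell by 0.17 on the log2 scale (adjusted p = 0.0192, edgeR) and, after IL-17, by 0.15 (adjusted p = 0.0372). The call held in 14 and 8 of 21 alternative settings.

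The stalk is the arm of the large subunit that recruits elongation factors; RPLP0 is its base and RPLP1 and RPLP2 bind to it in pairs. Rplp0 stood at 1770.3, 1566.3 and 1768.7 CPM in mock and 1971.5, 1853.5 and 1889.5 CPM with siRNA, and after IL-17 at 1726.6, 1710.8 and 1653.0 CPM against 1898.8, 2001.0 and 1951.3 CPM. Its groups did not overlap in either comparison, and the log2 fold changes were 0.16 (SE 0.059, adjusted p = 0.0482, edgeR) and 0.20 (SE 0.059, adjusted p = 0.0175). Rplp1 stood at 708.8, 740.4 and 927.2 CPM in mock and 816.7, 1028.9 and 950.2 CPM with siRNA; the highest mock library lay above the lowest siRNA library. Its log2 fold changes were 0.23 (SE 0.084, adjusted p = 0.0466) and 0.24 (SE 0.084, adjusted p = 0.0408). Rplp2 did not pass, with 0.07 and -0.04. The stalk calls were sensitive to the settings: Rplp0 passed in 7 and 16 of 21 alternatives and Rplp1 in 9 and 14, and neither passed in any of these comparisons with library totals alone.

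Of the small subunit genes, Rps3a1 and Rps10 fell in both comparisons. RPS3A lies near the site where the initiation factor eIF3 binds, and the gene is at chr3:86137940-86142702 on the minus strand. Rps3a1 stood at 933.0, 973.2 and 926.5 CPM in mock and 758.7, 847.8 and 749.7 CPM with siRNA. After IL-17 it stood at 955.9, 969.0 and 977.6 CPM in mock and 762.8, 828.5 and 780.1 CPM with siRNA. The groups did not overlap, and the log2 fold changes were -0.27 (SE 0.057, adjusted p = 0.00259, edgeR) and -0.29 (SE 0.057, adjusted p = 0.00131). The call was lost in 1 of 21 alternatives, the fit with no prefix term.

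Rps10 encodes a protein of the head of the small subunit, and its human counterpart is mutated in some patients with Diamond-Blackfan anaemia. It stood at 468.5, 570.1 and 608.8 CPM in mock and 413.1, 529.7 and 492.9 CPM with siRNA, so the RB160 mock library lay below 2 siRNA libraries. Within a prefix every siRNA library was below every mock library, and the fitted changes were -0.20 (SE 0.053, adjusted p = 0.0114, edgeR) and -0.21 (SE 0.053, adjusted p = 0.00693).

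After IL-17, Rps24 also fell. RPS24, like RPS10, is affected in Diamond-Blackfan anaemia. Rps24 stood at 995.8, 1065.9 and 1145.1 CPM in mock with IL-17 and 886.9, 1025.8 and 958.7 CPM with siRNA and IL-17, a log2 fold change of -0.16 (adjusted p = 0.0387, edgeR). The ranges of the groups overlapped, and the call held in 12 of 21 alternative settings. Without IL-17 its change was -0.09 and did not pass, and a test of the difference between the 2 siRNA effects passed for no member.

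**Figure D3:**
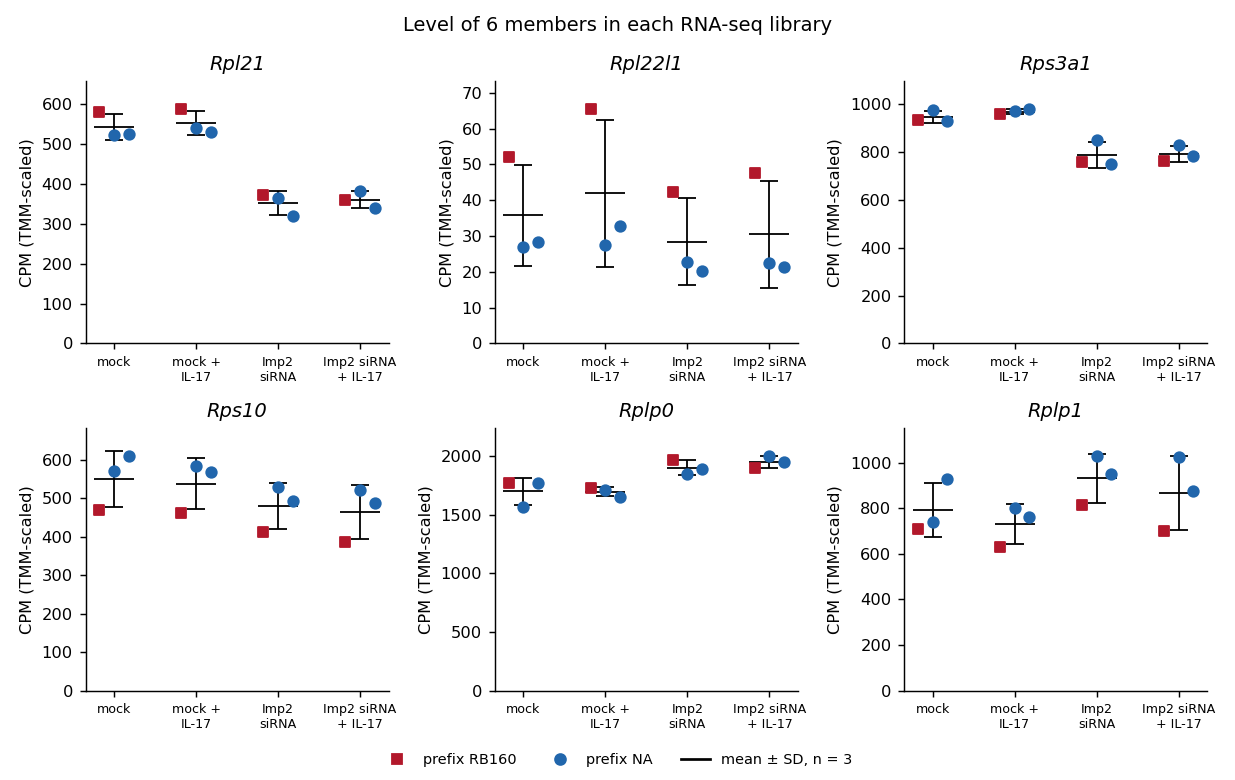
CPM (TMM-scaled, y axis from 0) of 6 members in each library of the 4 groups, with squares for prefix RB160, circles for prefix NA and bars for mean ± SD (n = 3). Rpl21 and Rps3a1 are lower in all 6 siRNA libraries than in all 6 mock libraries, Rplp0 is higher, and Rpl22l1 separates by prefix within every group.

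Several core proteins have a paralogue that can take their place in the ribosome. Rpl22l1, whose product replaces RPL22 and whose mRNA is held down by RPL22 in mouse, was the paralogue that passed. It stood at 52.1, 27.0 and 28.3 CPM in mock and 42.4, 22.8 and 20.1 CPM with siRNA, with the first library of each group carrying RB160. After IL-17 it stood at 65.4, 27.5 and 32.8 CPM in mock and 47.7, 22.3 and 21.3 CPM with siRNA. The prefixes lay apart in every group, and within each prefix every siRNA library was lower. The fitted changes were -0.34 (SE 0.079, adjusted p = 0.00427, edgeR) and -0.46 (SE 0.078, adjusted p = 0.00049). Its partner Rpl22 changed by 0.03 and -0.11 and did not pass. In counts not divided by length, Rpl22l1 made up 17.9 ± 4.13% of the counts of the pair in mock and 14.5 ± 4.16% with siRNA (SD, n = 3), with 19.3% to 24.2% in RB160 and 11.8% to 16.8% in NA libraries.

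The other tested paralogues did not pass in either siRNA comparison. Rps27l, a p53-induced copy of Rps27, changed by -0.0005 and -0.06, and took 33.0% to 45.7% of the counts of the pair over the 12 libraries. Rpl36al changed by 0.11 and 0.02 and took 37.8% to 45.3% of its pair with Rpl36a. Rpl7l1, which has a role in ribosome assembly, changed by -0.03 and -0.06. Rps27rt and Rpl37rt, which carry the name of a core gene with the ending rt, had log2 fold changes with SE of 0.23 and 0.25 and were the least precisely measured members. Of the core partners of paralogues, Rpl3 (changes -0.07 and -0.04), Rpl6, Rpl10, Rpl36a, Rpl39, Rps4x, Rps12 and Rps27 did not pass. Rpl7, the partner of Rpl7l1, passed in both comparisons, as given above. So did Rps3a1, the core gene of the near-copies Rps3a2 and Rps3a3.

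Members known for functions beyond protein synthesis in general stayed close to mock. Rpl5 changed by -0.03 (SE 0.050) and -0.06, and Rpl11 by -0.06 (SE 0.063) and -0.08. Rps6, the substrate of S6 kinase, changed by -0.10 in both; without IL-17 its 3 siRNA libraries lay between 682.8 and 761.2 CPM and its mock libraries between 761.8 and 782.0 CPM. Rpl38, which in mouse promotes translation of Hox mRNAs, changed by -0.01 and -0.08. Rps27a, a fusion with ubiquitin, changed by 0.06 and -0.02, Rps14 by -0.04 and 0.07, and Rpsa by -0.01 and 0.06. Rpl13a, in human cells part of an interferon-induced complex that silences inflammatory mRNAs, was measured at 549.2, 570.9 and 603.6 CPM in mock and 623.2, 651.2 and 633.1 CPM with siRNA, which did not overlap. Its change of 0.15 (SE 0.054) had an adjusted p of 0.0502 (edgeR), and after IL-17 it was 0.09 (adjusted p = 0.243). None of these genes passed.

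IL-17 for 8 h changed no member past the threshold. In mock cells 0 of 83 members passed in edgeR's quasi-likelihood test, where 0.409% of all tested genes were called; 5 members had an unadjusted p under 0.05, and DESeq2 also called 0 and gave 5 such members. Their median log2 fold change was 0.02, with 50 members above 0 and 33 below. In Imp2 siRNA cells 0 of 83 passed, beside 0.452% of all genes, with 0 at an unadjusted p under 0.05 by edgeR and 0 by DESeq2, and a median of 0.005. The core members, 46 large and 31 small subunit genes, lay within 0.2 of 0 in both comparisons. The groups overlapped for all 83 members in both, where 5.12% and 4.89% of all genes did not overlap. The 5 members with the low unadjusted p in mock cells were Rpl22l1 (0.20, adjusted p = 0.364), Rpl22 (0.12), Rps12 (0.14), Rps27a (0.13) and Rpl29 (-0.15), chosen here after their values were seen. The difference between the IL-17 effects with and without siRNA passed for 0 members and for 0% of all genes, with 0 members at an unadjusted p under 0.05 by edgeR and by DESeq2. The members' median SE was 0.06 in both IL-17 comparisons and 0.09 for the difference between them.

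More members passed by title prefix than in any other comparison, as did more of all genes. Between RB160 and NA libraries, with group held fixed, 59 of 83 members (71.1%) passed, 35 higher and 24 lower in RB160. Of all tested genes 69.3% were called, 34.8% higher and 34.5% lower, and of those with a mean of at least 100 CPM 76.6%. The members' share is thus near that of all genes. The values ran from -0.70 for Rpl27 to 1.04 for Rpl22l1 on the log2 scale. Values at both ends changed when members were summed with their pseudogenes. Rpl27 then differed by -0.18 (adjusted p = 0.00137, edgeR) and Rpl10 by 0.26 in place of 0.45. Rps12 differed by 0.18 in place of -0.24, so the sign of Rps12 turned. Rpl28 then had the lowest value. Rps27a stood at 570.0 to 700.9 CPM in the 4 RB160 libraries and at 367.8 to 408.2 CPM in the 8 NA libraries, a difference of 0.68 (adjusted p = 6.88e-09, edgeR). Rpl27 stood at 47.6 to 63.1 CPM in RB160 and 86.7 to 96.2 CPM in NA libraries. Rpl28 (-0.54) and Rpl30 (-0.51) were also lower in RB160, and Rpl7 (0.61) and Rpl31 (0.48) higher. Every group has 1 RB160 and 2 NA libraries. The siRNA log2 fold changes of the main fit above hold the prefix fixed, whereas the permutation tests and the overlap of groups do not.

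**Figure D4:**
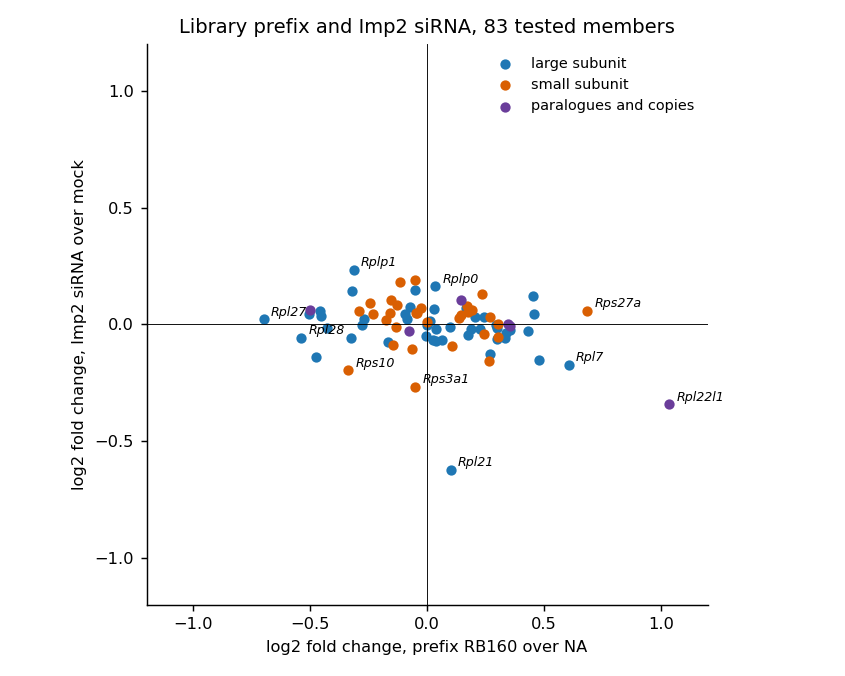
Log2 fold change by library prefix (RB160 over NA, x axis) against that by Imp2 siRNA without IL-17 (y axis) for 83 tested members, on equal scales. The points spread from -0.70 to 1.04 along the prefix axis and, apart from Rpl21 at -0.62, between -0.34 and 0.23 along the siRNA axis.

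Nearly all members were in the RIP-seq list of RNAs recovered with anti-IMP2. The list is the authors' deposited table, which holds 5294 genes with a log2 fold change of anti-IMP2 over IgG of at least 1 and an adjusted p of at most 0.05. It held 84 of the 91 members: 45 of 46 large subunit genes, 30 of 31 small subunit genes and 9 of 14 paralogues. Of the 83 members tested in RNA-seq, 80 (96.4%) were in the authors' deposited table, compared with 34.5% of all 13702 tested genes. Level matters for being listed, so the same was done at a mean of at least 100 CPM. There 75 of 78 members (96.2%) were listed, against 56.6% of all such genes and 55.0% of the 1908 others. This floor does not match level between members and others. The median of the mean normalized counts in RIP-seq was 5117 for these listed members and 513 for the listed others. Those counts also hold the recovery with anti-IMP2, and the part of level was not tested further. In the authors' deposited table the members' median log2 fold change was 3.25, with an interquartile range from 2.86 to 3.83, and the median of all listed genes was 2.16. Of the 84 members, 82 lay above that median. They held 17.4% of the summed mean normalized counts of the listed genes.

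The highest RIP-seq values among core genes were those of Rps21 and Rps28, whose products are among the smallest proteins of the small subunit. In the authors' deposited table Rps21 had a log2 fold change of 5.04 (SE 0.749, adjusted p = 3.57e-10) and Rps28 4.66 (SE 0.776). Rpl12 (4.62), a neighbour of the stalk base, Rpl38 (4.55), Rpl34 (4.51), Rps24 (4.46), Rpl31 (4.46), Rps26 (4.39) and Rpl30 (4.35) followed in the authors' deposited table. Rps27rt headed all members at 5.46 (SE 0.885) on a mean normalized count of 131. The authors' deposited table gave Rps12, at 4.31, the smallest SE of the leading members (0.269, adjusted p = 2.50e-54). SE of neighbours in the order overlapped widely, at 0.27 to 1.14 among the first 12, so their ranks are not separate. Among the genes named here for which a promoter window was found, Rps21, Rps28, Rpl12 and Rps27rt have no pyrimidine run near the start. Rpl38, Rpl34, Rps24, Rpl31, Rps26 and Rps12 have one. The RefSeq start of Rpl12 lay 153 bases from its gene start in the count table. Whether runs go with the RIP-seq value was not tested.

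Members that passed for siRNA were found high and low in the RIP-seq ranking. In the authors' deposited table Rpl21 stood at 4.20 (SE 0.938) and Rplp1 at 4.15 (SE 0.541), Rplp0 at 3.08, Rps3a1 at 2.86 (SE 0.968), Rpl22l1 at 2.59 and Rpl7 at 2.40 (SE 0.932). Rps10 was not listed. Rpl22 stood at 4.21 in the authors' deposited table, above its paralogue Rpl22l1, and Rps27 at 4.13, above Rps27l at 2.38. The lowest listed members were Rps4l at 1.84, Rpl7l1 at 2.10 and Rpl3 at 2.21, again from the authors' deposited table. Across the 80 members with both values, the RIP-seq log2 fold change and the siRNA log2 fold change had a Pearson r of 0.12 without IL-17 and 0.08 with it (Spearman 0.16 and -0.01). With the log2 mean CPM the RIP-seq value had an r of -0.14. These describe 80 genes measured in the same libraries, which are not independent. The RIP-seq cells had 3 h of IL-17, and the RNA-seq cells none or 8 h. Only genes past the limits of the list have a RIP-seq value.

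**Figure D5:**
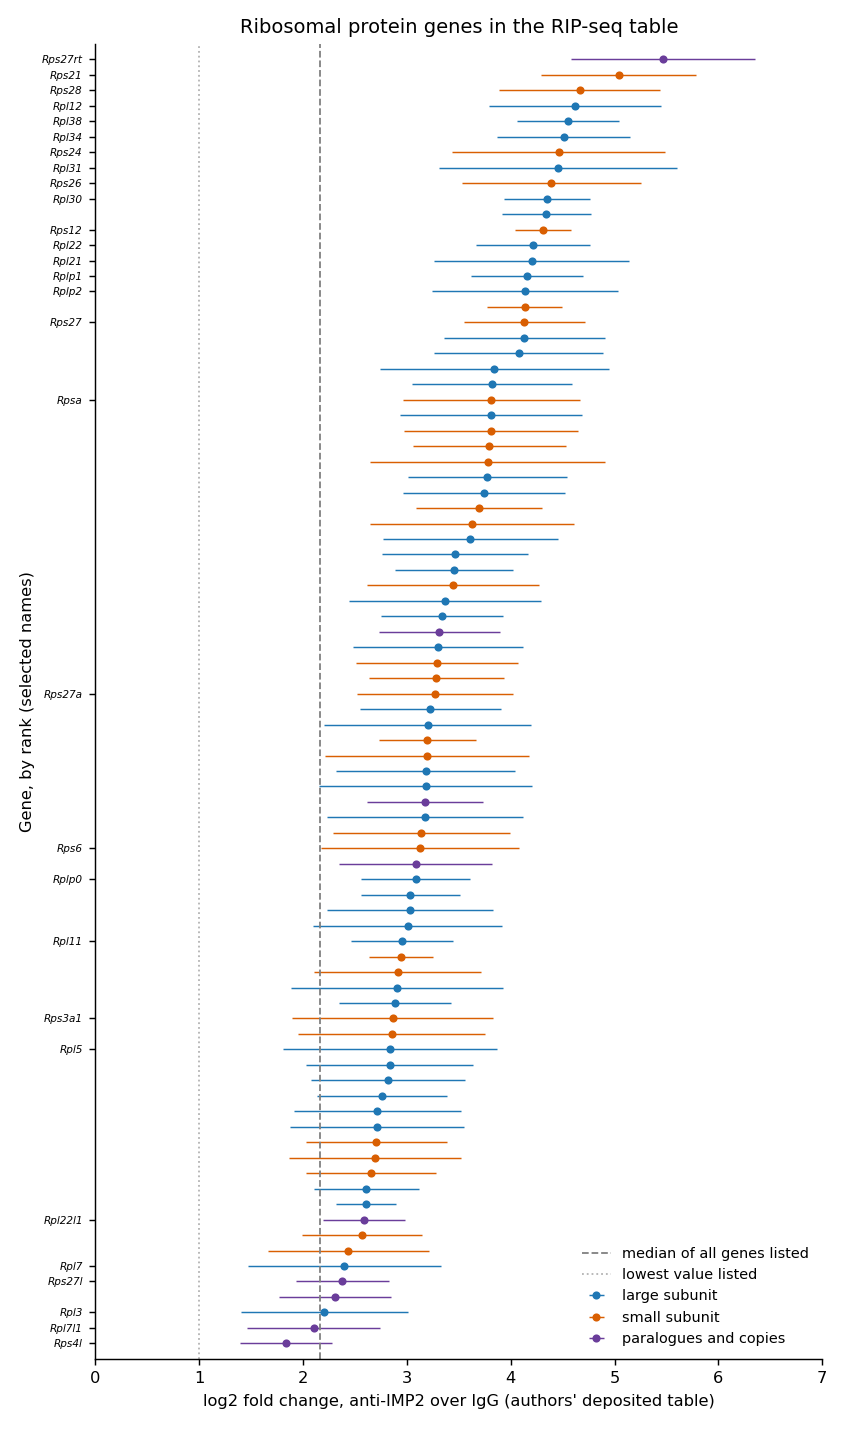
Log2 fold change of anti-IMP2 over IgG with its standard error (x axis) for the 84 ribosomal protein genes in the authors' deposited table, in rank order and coloured by class, with names given for 29 of them. All but 2 lie above the median of the listed genes (2.16, dashed), and paralogues hold both the highest place, Rps27rt, and the lowest, Rps4l.

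The 7 members missing from the RIP-seq list include 4 paralogues with 0 to 3 RNA-seq counts (Rps12l1, Rpl10l, Rpl39l and Rpl3l) and 3 abundant genes. Rps10 had 228504 RNA-seq counts in all, Rpl24 had 129724 and Rpl36al had 72186. The table holds only genes past its limits, so values for these genes were not analysed here. Copies complicate the counting, since 60 members have pseudogenes that carry their name. No source used here states how reads that match several copies were assigned. For 3 tested members the pseudogenes held over 10% of the member's own RNA-seq counts: 872% for Rpl10, 420% for Rpl27 and 42.5% for Rps12, so the levels of Rpl10, Rpl27 and Rps12 are uncertain. Summed with its pseudogenes Rpl10 passed in both siRNA comparisons, at 0.19 (adjusted p = 0.0114, edgeR) and 0.18 (adjusted p = 0.0165).

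Genes that work with the ribosomal proteins were taken as 6 lists. The list of ribosomal proteins whose names the rule leaves out had 0 of 3 genes called; Fau changed by -0.08 and 0.05 and Rack1 by 0.06 and 0.10. The calls of each list below stand beside 32.4% of all tested genes called without IL-17 and 33.3% with it. Of 18 other mRNAs with a TOP element, 1 rose and 5 fell without IL-17, and 1 rose and 5 fell with it (33.3% called in both, near the share of all genes). Falls included Tpt1 (-0.20 and -0.26), encoding the growth-related tumour protein TCTP, the initiation factor subunit Eif3e (-0.22 and -0.21), Npm1 (-0.21 and -0.26) and Eef1b2 (-0.16 and -0.19), while Eif3k rose (0.20 and 0.22). The median of these 18 genes was -0.05 in both comparisons.

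Of 27 ribosome biogenesis genes, 2 rose and 2 fell without IL-17 and 1 rose and 6 fell with it (14.8% and 25.9% called, below the share of all genes). Dkc1, the pseudouridine synthase dyskerin, stood at 89.0, 94.2 and 91.8 CPM in mock and 65.9, 52.1 and 41.7 CPM with siRNA, a change of -0.80 (SE 0.13, adjusted p = 0.000844, edgeR). After IL-17 the change of Dkc1 was -0.86 (adjusted p = 0.000549). Fbl, the methyltransferase fibrillarin, fell by 0.26 and 0.29, Nop2 rose by 0.27 and 0.26, and Nip7 fell by 0.46 after IL-17. Among 12 RNA polymerase I genes, Ttf1 (-0.21 and -0.38), Rrn3 (-0.25 and -0.31) and Polr1c (-0.21 and -0.24) fell and Taf1c (0.32 and 0.42) rose in both comparisons, 33.3% of the list in each. Of 11 chaperones and importers of ribosomal proteins, Tnpo1 fell in both (-0.31 and -0.28) and Tsr2, the chaperone of RPS26, fell after IL-17 (-0.24), which makes 9.09% and 18.2% of the list.

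Of 15 genes that control ribosomal protein mRNAs or respond to free ribosomal proteins, 3 rose in both comparisons and 1 fell after IL-17 (20% and 26.7% called). Rheb, the GTPase that activates mTORC1, stood at 84.2, 106.3 and 93.6 CPM in mock and 107.3, 146.9 and 144.0 CPM with siRNA; its changes were 0.48 (adjusted p = 3.77e-05, edgeR) and 0.43. Eif4ebp1, a translation inhibitor that mTORC1 inactivates, rose by 0.57 and 0.54, and Mdm2 rose by 0.28 and 0.26. Rps6kb1, an S6 kinase, fell by 0.24 after IL-17. No gene of the 6 lists passed for IL-17 in either background. In the authors' deposited table of RIP-seq, 3 of 3 of the ribosomal proteins outside the rule were listed (median log2 fold change 3.11), 14 of 18 other TOP genes (2.88), 21 of 27 biogenesis genes (1.87), 6 of 12 polymerase I genes (1.93), 6 of 11 chaperones and importers (2.09) and 6 of 15 control genes (2.37). These stand beside 34.5% of all tested genes listed, 56.6% of those with a mean of at least 100 CPM, and the median of 2.16 for all listed genes.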

How the data were processed

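Per the labels' protocols, the kits were Nextera XT (RNA-seq) and SMART-Seq v4 (RIP-seq). For each of the 12 RNA-seq libraries the authors deposited whole-number gene counts. The submitters' processing notes list mm10, STAR, CASAVA 1.4 and DESeq2, without saying what each did. No source states strand, so overlapping antisense genes could not be told apart. For the 6 RIP-seq libraries the authors deposited 1 comparison of anti-IMP2 with IgG. Per the file headers it gives the mean normalized count (a signal), a log2 fold change with its standard error, a Wald score and p-values; it was used as a description, with no test added here. Of the per-sample columns, 0 went unused; a gene list and a table with motif calls were not used.

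Counts were fitted with edgeR 4.0.16 (R 4.3.3): filterByExpr, TMM factors, a robust quasi-likelihood model on all 12 libraries with group and title prefix as terms, and Benjamini-Hochberg adjustment over 13702 genes at 0.05. The standard error is the log2 fold change divided by the square root of F. The procedure was tested on simulated data with planted changes. Recovery of changes as small as most of those called among members is not given, so the test does not bear on them. The filter left out 8 paralogues with few or no counts. Alternatives were other scalings, no filter, no prefix term, NA libraries alone, compared groups alone, sums with pseudogenes, DESeq2 1.42.0 and leaving out each library. The members and gene lists were chosen with earlier results of these data known.

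Named genes were the 5 largest rises and falls per comparison among members past the threshold, and all paralogues with their partners. Also named were 11 members of known role and the first 10 by RIP-seq value. The rule for each list was up to 4 genes past the threshold. Departing from it, 5 genes were named from the list of other TOP genes, and Fau and Rack1 were named although they did not pass. Levels per coding length, part of the rule, were not used, since no lengths were at hand; CPM is not divided by gene length, so shares and ratios of counts between genes are not ratios of their levels. Promoter windows are from RefSeq (GRCm38.p6), matched by symbol. Replicate numbers follow accession order and only name libraries: number 1 carries the prefix RB160. Results for some genes are not reported here.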

Additional observations from a re-analysis of the deposited data

How the results depend on the processing

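No paired analysis was possible because the labels give the RNA-seq libraries no replicate numbers (those used here follow accession order), and for RIP-seq only the authors' comparison was used. Of 21 alternatives, 12 left out 1 library each, and no direction of a called member reversed. The 7 members called for Imp2 siRNA without IL-17 (4446 of all genes) became 1 (303) with no prefix term, 4 (4172) with NA libraries alone, 4 (3929) with the compared groups alone and 16, all falls (4890), with library totals alone; leaving out 1 library gave 4 to 9 (3169 to 4647), with 4 reached without mock replicate 1, Imp2 siRNA replicate 1 or Imp2 siRNA replicate 3. The 10 called with IL-17 (4558) became 1 (318), 5 (4289) with NA libraries and 23, all falls (4958), with library totals, and 4 to 11 (3313 to 4744) when 1 library was left out, with 5 without replicate 1 and 4 without replicate 3 of mock with IL-17, and 5 without replicate 3 of siRNA with IL-17. Fewer samples and residual degrees of freedom enter the fits on NA libraries or compared groups; the cause of the other shifts was not tested. The members' medians moved to -0.077 and -0.113 with library totals, where the median of all genes was -0.09 in both. The IL-17 and interaction counts were 0 in every alternative run. Rpl21 passed in 21 of 21 alternatives in both siRNA comparisons, and Rpl22l1 and Rps3a1 in 20. The alternative of levels per coding length was not run. Library totals alone, and the RIP-seq background at 100 CPM, were chosen after seeing the data. The least precise members were Rpl37rt (mean 80.5 CPM, SE 0.25) and Rps27rt (21.4 CPM, SE 0.23), while Rpl22l1 at 34.1 CPM had an SE of 0.08; the part of depth was not tested.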

Other observations

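Named ribosomal protein pseudogenes differed between the 2 data types. Of 275 genes with a name of the form Rpl or Rps and -ps, 264 had 0 counts in the RNA-seq table. In the authors' deposited table of RIP-seq, 91 of the 275 were listed, with a median log2 fold change of 3.15, and 83 of these 91 had 0 RNA-seq counts. The near-copies Rps3a2, Rps3a3 and Rps4l also had 0 RNA-seq counts, and stood at 2.30, 3.18 and 1.84 in the authors' deposited table. Rps10 was not listed there, although 2 of its 4 named pseudogenes were, and Rpl24 has no pseudogene of its name. Whether reads were assigned to copies by the same rule in both tables was not tested.

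Rpl10-ps3, on chromosome 9, held 409773 RNA-seq counts, where Rpl10 itself held 46992. Its level rose with Imp2 siRNA, by 0.20 (adjusted p = 0.00997, edgeR) without and 0.19 (adjusted p = 0.0133) with IL-17 on the log2 scale. Rpl10 changed by 0.12 and 0.08 and did not pass. Rpl27-ps3, with 147361 counts against 35115 for Rpl27, changed by 0.03 and 0.005, and Rps12-ps3, with 110087 counts, by 0.03 and 0.04, neither past the threshold.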
